A study of Mus musculus with 16 samples.

Results

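Resident alveolar macrophages, the phagocytes that patrol the air spaces and clear surfactant, are recognised in the mouse by a small set of genes that few other leukocytes express together. The genes described here are 8 of these, taken by symbol from the deposited tables: Siglecf, Car4, Ear1, Ear2, Ear10, Plet1, Krt79 and Krt19, out of 54532 genes counted. They were measured by bulk RNA sequencing of cells washed from the lung by bronchoalveolar lavage, in 16 libraries from 4 groups of 4: females given saline, males given saline, females given bleomycin and males given bleomycin. All mice were 8 to 10 weeks old, of the strain spelled C56BL/6J in the sample labels and C57BL/6 in the design text. Bleomycin, an antibiotic that injures the lung epithelium and is used to provoke inflammation and scarring, was given into the oropharynx at 4 U per kg body weight, and cells were taken at 14 days. No genetic change is named for any group, and no sorting of the cells is named. The labels do not say whether libraries come from separate mice, so p-values measure only the spread between these samples.

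Total counts per library ran from 16385784 to 24567609. Levels are given as CPM, counts relative to the library total, scaled for library composition by edgeR's TMM factors, unless FPKM, which also divides by gene length, is named. Lavage cells are a mixture, and fewer cells of a type cannot be told apart from less RNA per cell. Lists of marker genes for other cell types were therefore read beside each result, and libraries are called by the codes in their labels (C33, C68 and so on).

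The identity of these macrophages is set after birth by GM-CSF, a cytokine from the alveolar epithelium, and by TGF-β, which together induce the nuclear receptor PPARγ. BHLHE40 and BHLHE41 are transcription factors that maintain the cells' self-renewal. After injury, monocytes enter the air space and can turn into macrophages that acquire the resident genes gradually. Among the 8 genes, Siglecf encodes a sialic acid-binding lectin that eosinophils also carry. Car4 encodes a carbonic anhydrase anchored to the outer membrane, also found on lung capillary endothelium. Plet1 encodes a surface protein that epithelial progenitors also express. The Ear genes encode small secreted ribonucleases of the RNase A family, named after eosinophils, and Ear2 is also known from patrolling monocytes. Krt79 and Krt19 encode keratins, intermediate filament proteins better known from epithelia. All 8 are protein-coding. In the deposited tables (GRCm38) Siglecf (ENSMUSG00000039013) spans chr7:43351341-43359531, Car4 (ENSMUSG00000000805) chr11:84957786-84966044 and Krt19 (ENSMUSG00000020911) chr11:100140810-100148665. Plet1 (ENSMUSG00000032068) spans chr9:50494525-50505482, Krt79 (ENSMUSG00000061397) chr15:101929332-101940324, and the Ear genes lie between chr14:43818765 and chr14:44103534.

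Ear1, Ear2 and Ear10 are neighbouring copies on chromosome 14, so their sequences are shown first, because the copies changed by different amounts. Each is the stretch of 250 bases upstream of the start of the gene in RefSeq (build GRCm38.p6), written 5′ to 3′ on the strand of the gene. Ear2 lies at chr14:44102404-44102653 on the plus strand, Ear1 at chr14:43819640-43819889 on the minus strand and Ear10 at chr14:43923597-43923846 on the minus strand. Capitals in Ear1 and Ear10 mark bases that differ from Ear2, or have no partner in it, in a global alignment of each pair.
Ear2: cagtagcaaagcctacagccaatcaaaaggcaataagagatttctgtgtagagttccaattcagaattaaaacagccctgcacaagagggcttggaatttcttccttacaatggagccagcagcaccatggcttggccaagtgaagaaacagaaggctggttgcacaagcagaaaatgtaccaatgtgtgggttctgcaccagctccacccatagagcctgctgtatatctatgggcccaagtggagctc
Ear1: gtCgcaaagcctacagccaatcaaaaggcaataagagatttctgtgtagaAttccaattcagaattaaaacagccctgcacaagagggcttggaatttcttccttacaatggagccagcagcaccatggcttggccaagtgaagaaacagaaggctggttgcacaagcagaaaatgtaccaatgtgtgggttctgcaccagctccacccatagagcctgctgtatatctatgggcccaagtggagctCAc
Ear10: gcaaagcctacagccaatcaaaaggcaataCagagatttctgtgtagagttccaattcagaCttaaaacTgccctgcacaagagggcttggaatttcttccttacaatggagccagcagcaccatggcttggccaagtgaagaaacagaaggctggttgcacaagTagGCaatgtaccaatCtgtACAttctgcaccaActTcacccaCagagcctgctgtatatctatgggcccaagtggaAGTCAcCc
The Ear1 and Ear2 stretches were identical in 246 of 252 aligned columns (97.6%), with 2 mismatches and 4 unpaired columns. Ear2 and Ear10 matched in 90.6% of columns and Ear1 and Ear10 in 91.7%. Over the 18 other pairs among the 7 genes with a sequence, identity ran from 43.9% to 51.3%.

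The upstream stretches of the gene that fell most, Krt79 (chr15:101940325-101940574, minus strand), and of the gene that fell least, Plet1 (chr9:50494275-50494524, plus strand), follow. Capitals in them mark matches to any of 5 motifs of macrophage transcription factors or the core promoter, searched on both strands.
Krt79: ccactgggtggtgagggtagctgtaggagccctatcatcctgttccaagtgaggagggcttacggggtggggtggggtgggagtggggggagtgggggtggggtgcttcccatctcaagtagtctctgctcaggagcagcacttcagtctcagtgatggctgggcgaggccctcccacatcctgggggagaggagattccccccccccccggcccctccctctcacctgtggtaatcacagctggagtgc
Plet1: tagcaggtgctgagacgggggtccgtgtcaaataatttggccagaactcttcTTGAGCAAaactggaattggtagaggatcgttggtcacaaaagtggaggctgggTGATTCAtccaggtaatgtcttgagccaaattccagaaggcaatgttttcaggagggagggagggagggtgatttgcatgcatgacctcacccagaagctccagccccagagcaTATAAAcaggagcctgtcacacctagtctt
The ETS motif of PU.1, the master regulator of myeloid cells, was searched as GAGGAA. The E-box of BHLHE40 and BHLHE41 was searched as CACGTG and the TATA box as TATAAA. For the AP-1 factors the letters were TGANTCA, where N is any base. For the C/EBP factors they were TTGCNNAA. Plet1 held the C/EBP motif 198 to 191 bases upstream of its start, the AP-1 motif at 144 to 138 and the TATA box at 30 to 25. Krt79 held no match in this window. The C/EBP motif was found most often, in 4 of the 7 stretches (Ear1, Ear2, Ear10 and Plet1), against 9.56% of 32851 promoter stretches of the same length, and 3 of those 4 are the near-identical Ear copies. In Ear2 it lies 90 to 83 bases upstream. The PU.1 motif was found in Siglecf alone among the 7 (23.3% of all promoters), and the AP-1 motif (6.75%) and TATA box (12.4%) in Plet1 alone. The E-box (6.02%) was in none of the 7. A match describes these letters and is not shown to be a binding site.

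Saline lavage cells expressed 7 of the 8 genes at high levels. Of 22046 protein-coding genes ordered by mean FPKM over the 8 saline libraries, Ear2 stood 7th (2285 ± 222 FPKM, SD, n = 8), Ear1 35th (551 ± 48.0) and Plet1 43rd (465 ± 43.9). Krt19 was 87th (305 ± 23.3), Car4 150th (206 ± 38.2), Siglecf 156th (202 ± 8.20) and Krt79 282nd (130.4 ± 14.5). The ranges of Ear1 and Plet1 overlapped, as did those of Car4 and Siglecf, and all other neighbours in this order were separate. Ear10 was the exception, at 0.607 ± 0.154 FPKM and rank 10219, so the label of a macrophage identity gene rests for Ear10 on 5 to 12 counts per saline library. Marker lists of other cells differed widely in level in the same saline libraries. The summed CPM of 10 T cell genes did not exceed 9.38 in any of them, nor that of 6 B cell genes 1.28. Neutrophil genes summed to 81.5 to 124 CPM. The lists of epithelium, endothelium and monocytes, given with the results they touch, were higher. Most of these 3 saline sums came from Epcam and Cdh1, from Vwf and from Fn1, respectively.

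**Figure D1:**
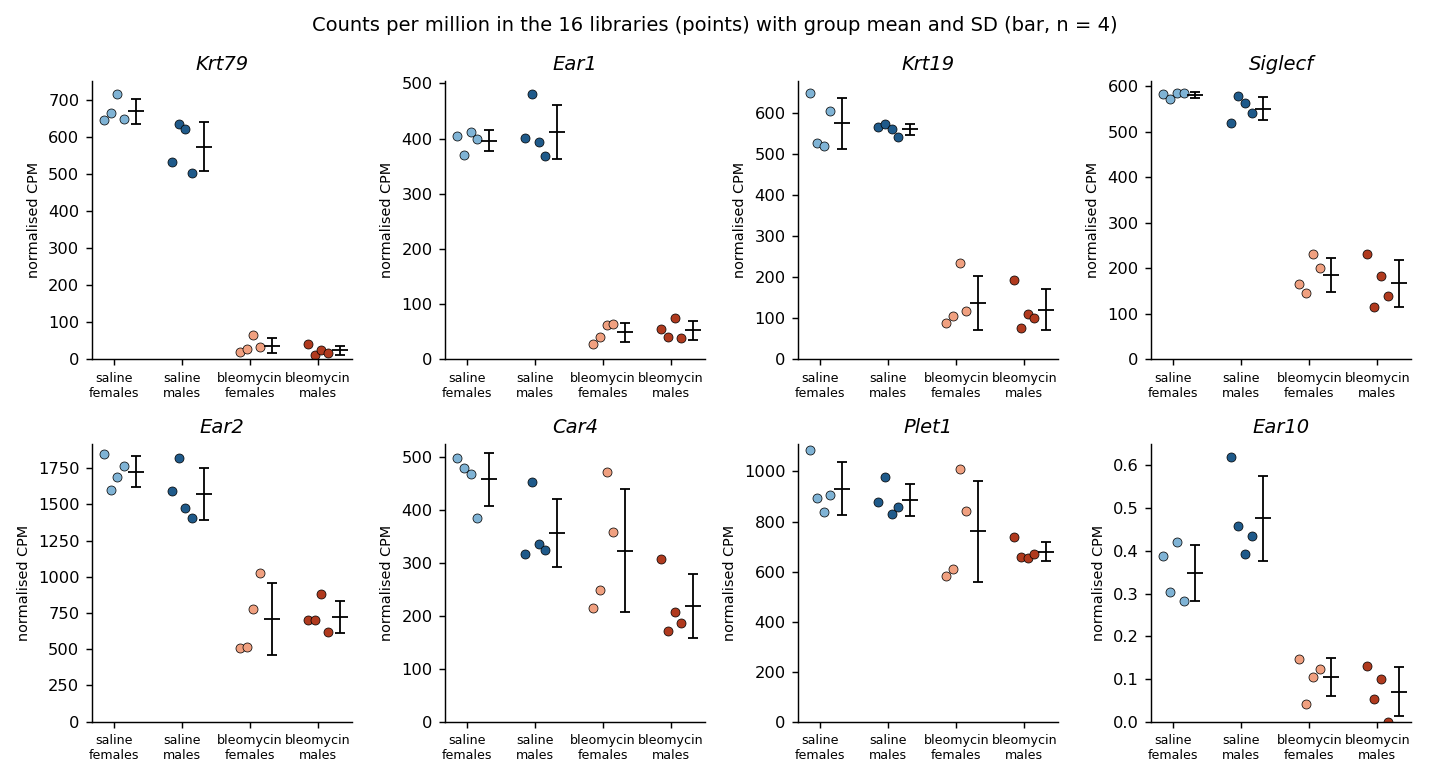
Normalised CPM (linear axes from 0) of the 8 genes in each of the 16 libraries, ordered by the size of the fall, with the group mean and SD beside the points (n = 4). Bleomycin libraries lie below every saline library for Krt79, Ear1, Krt19, Siglecf, Ear2 and Ear10, while the bleomycin females C68 and C69 reach into the range of the saline libraries for Car4 and Plet1.

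At 14 days after bleomycin, all 7 of the genes abundant enough to be tested were lower than after saline, from 21.3-fold lower for Krt79 to 1.26-fold lower for Plet1. None of the 7 entered the test through the saline libraries alone, since the lowest, Krt79 in bleomycin males, still had 222 counts or more per library. Each passed edgeR's quasi-likelihood test, averaged over the sexes, at a Benjamini-Hochberg adjusted p below 0.05 over 15257 genes. Over all genes tested, 28.8% were called lower in that comparison (4400 of 15257), and 5300 were called higher. Counts of calls in the gene lists below are to be read beside these shares. The median log2 change of the 7 was -1.69, beside 0.01 for all genes. In males 7 of 7 were called lower (24.9% of all genes), and in females 5 of 7 (17.2%). With no overlap of libraries, 5 of the 7 were lower in all 8 bleomycin than in all 8 saline libraries (10.3% of all genes). The same count was 7 of 7 in males (24.6%) and 5 of 7 in females (15.3%). Scaling by library totals alone moved the median of all genes to -0.20 and the share of calls that were higher from 54.6% to 34.7%, and the 7 genes stayed lower under it.

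Krt79, a type II keratin, fell the most. It measured 646, 650.4, 666 and 717 CPM in the 4 saline females and 504, 533, 624 and 637 CPM in the 4 saline males. After bleomycin it measured 19.6, 28.5, 33.7 and 64.0 CPM in females and 11.6, 17.2, 24.4 and 40.0 CPM in males. The highest bleomycin library, C68, was thus far below the lowest saline library. The log2 change was -4.41 (SE 0.25, edgeR adjusted p = 2.25e-11), which placed Krt79 11th among the 15257 genes ordered from the most lowered.

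Krt19, a type I keratin and a widely used epithelial marker, also fell. Saline females held 521, 528, 606 and 649.9 CPM and saline males 543, 561, 566 and 575 CPM. Bleomycin females held 87.9, 106, 118 and 235 CPM and bleomycin males 76.7, 101, 111 and 192 CPM. No libraries overlapped between treatments, and the log2 change was -2.15 (SE 0.19, edgeR adjusted p = 1.55e-08). The ratio of Krt79 to Krt19 in FPKM was 0.362 to 0.537 in saline and 0.059 to 0.111 in bleomycin libraries, so Krt79 lost more than Krt19 in each of the bleomycin libraries.

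Other keratins split in direction. Of 51 further keratin genes in the annotation, 10 were tested, and 6 rose while 4 fell. Krt8, the usual partner of Krt18 in simple epithelia, rose by 4.62 on the log2 scale (SE 0.14, edgeR adjusted p = 4.19e-15), from a mean FPKM of 0.384 in saline to 8.89 in bleomycin libraries. Krt18 rose by 4.50 and Krt7 by 3.87, while Krt80 fell by 0.83. Among 19 epithelial markers, 16 rose and 1 fell, with the summed level at 208.6 to 264 CPM in saline and 222 to 323 CPM in bleomycin libraries. The one that fell was Epcam, an epithelial adhesion molecule, from 119.6 and 119.3 CPM in saline females and males to 18.3 and 19.6 CPM. Cdh1, the other abundant gene of the list, measured 100.8 and 71.7 CPM in saline females and males. It did not pass the test (log2 change -0.06, edgeR adjusted p = 0.533). Genes that rose were low in saline, with group means of at most 9.91 CPM for Scgb1a1, 4.33 for Sftpc, 0.853 for Krt18 and 0.812 for Krt7. By number of genes, Krt19 thus moved against most of the epithelial list. Of the 2 epithelial genes abundant in saline, Epcam fell with Krt19 and Cdh1 was not called.

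Siglecf was the most even of the 7 genes among saline females. Its values were 572, 583, 585 and 585 CPM in saline females and 519, 541, 563 and 579 CPM in saline males. After bleomycin they were 145, 165, 199.9 and 230.3 CPM in females and 114, 139, 182 and 232 CPM in males. The spread over libraries widened from a coefficient of variation of 1.09% to 20.4% in females and from 4.73% to 30.9% in males, with no overlap between treatments. The log2 change was -1.69 (SE 0.12, edgeR adjusted p = 6.95e-10).

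Markers of eosinophils, which also carry Siglec-F, moved the other way in these libraries. All 4 tested genes of the 7-gene eosinophil list rose, and the summed level was 2.66 to 5.44 CPM in saline and 15.4 to 28.7 CPM in bleomycin libraries. Of the 4, Alox15, Ccr3 and Il5ra had saline group means of at most 0.136, 0.0247 and 0 CPM. A fall could hardly have been called in these genes. By group mean the highest of the list was Ear6, at 4.51 and 3.45 CPM in saline females and males and 16.2 and 12.5 CPM after bleomycin. Next was Alox15, a lipoxygenase that some macrophages also express, at 0.136 and 0.126 CPM in saline females and males and 5.44 ± 5.02 and 2.50 ± 1.18 CPM (SD, n = 4) after bleomycin. Prg3, an eosinophil granule protein, was at 0 in every group, and Ccr3 and Il5ra did not exceed a group mean of 2.04 CPM. Other Siglec genes split in direction. Of 7 tested, Cd33, Siglece and Mag fell, Cd22, Siglecg and Siglech rose, and Siglec1, a receptor of tissue macrophages, had a log2 change of 0.01 (SE 0.10, edgeR adjusted p = 0.939).

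Car4 changed less, and with overlap. Saline females held 385, 468, 479 and 498 CPM and saline males 317, 324, 335 and 452 CPM. Bleomycin females held 214, 249, 358 and 471 CPM and bleomycin males 172, 187, 207 and 306 CPM. C68 among bleomycin females was within the range of saline females, while the 2 groups of males were separate. The average log2 change was -0.61 (SE 0.15, edgeR adjusted p = 0.00185). By sex it was -0.71 in males (adjusted p = 0.00886) and -0.50 in females (adjusted p = 0.0634), and without C68 the value in females was -0.74 (adjusted p = 0.00546). With each other library left out in turn, the smallest change in females was -0.35. The call in females also depended on the method: DESeq2 gave an adjusted p of 0.0306 and limma voom 0.0357, and edgeR without C33 or C65 gave 0.037 or 0.0463.

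The other carbonic anhydrases were low beside Car4. None of the 4 with the highest FPKM exceeded 11.4 FPKM in either treatment, and of 9 tested 4 fell and 3 rose. Endothelial markers were sparse: Pecam1 had a mean of 0.234 and 0.200 CPM in saline females and males and 14.1 and 18.5 CPM after bleomycin, and Cldn5 and Gpihbp1 were at 0 in all 4 groups. The summed level of the 10 endothelial genes, most of it Vwf, was 137 to 183 CPM in saline and 155 to 251 CPM in bleomycin libraries. Of the 4 endothelial genes tested, 3 rose and Vwf did not pass (log2 change 0.17, edgeR adjusted p = 0.172). The 3 that rose, Pecam1, Kdr and Cdh5, had saline group means of at most 0.234, 0.0242 and 0.0371 CPM. A fall could hardly have been called in them.

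Plet1 changed least of the 7. It measured 839.8, 893, 906 and 1085 CPM in saline females and 829, 859.6, 879.7 and 979 CPM in saline males. After bleomycin the values were 582, 610.4, 841 and 1009 CPM in females and 653, 657, 672 and 737 CPM in males. Females overlapped and males did not. The average log2 change was -0.34 (SE 0.10, edgeR adjusted p = 0.0061), with -0.38 in males (adjusted p = 0.0259) and -0.29 in females (adjusted p = 0.0997). The call in males was lost without C71, C65, C66 or C67 (highest adjusted p = 0.0733), and in females the test was passed without C68 (log2 change -0.46, adjusted p = 0.00573). Without C49 the change in females was -0.18 (adjusted p = 0.254), and without C74, a saline female, -0.21 (adjusted p = 0.277). Plet1 overlaps an antisense gene, Plet1os, which took 280 to 399 counts per library, and whether strand was used in counting is not given in the sources used here.

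Ear2 was the most abundant of the 8 in both treatments. Saline females held 1596, 1689, 1766 and 1848 CPM and saline males 1407, 1476, 1589 and 1818 CPM. Bleomycin females held 511, 515, 775 and 1027 CPM and bleomycin males 616, 699.8, 704 and 878 CPM, all below saline. The log2 change was -1.20 (SE 0.13, edgeR adjusted p = 1.5e-07).

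Ear1 fell more steeply than Ear2. It measured 370.1, 399, 404 and 412 CPM in saline females and 369, 394, 401 and 482 CPM in saline males. After bleomycin it measured 27.5, 40.3, 62.0 and 63.3 CPM in females and 38.5, 40.3, 54.5 and 75.2 CPM in males. The log2 change was -3.01 (SE 0.17, edgeR adjusted p = 1.87e-11). Ear1 made up 17.9% to 21.0% of the counts of the 3 copies in saline and 5.11% to 7.88% in bleomycin libraries, with no overlap.

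Ear10 did not reach the count needed for the test. Its counts were 5, 7, 7 and 8 in saline females, 8, 8, 9 and 12 in saline males, 1, 2, 2 and 3 in bleomycin females and 0, 1, 2 and 3 in bleomycin males. Summed over libraries this was 64 counts in saline and 14 in bleomycin, and no libraries overlapped. Fitted without the filter on low counts, the log2 change was -2.20 (SE 0.55, edgeR adjusted p = 0.000865). Ear10 was at most 0.0311% of the counts of the 3 copies.

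Because the copies are alike, the split of reads between them is uncertain. Of all windows of 50 bases in their GENCODE M21 transcripts, 42.6% for Ear1, 58.5% for Ear2 and 60.1% for Ear10 occurred in no other gene. At 150 bases the shares were 94.3%, 93.7% and 93.2%, and the read length is not given in the sources used here. Ear1 shared 41.4% of its 50-base windows with the pseudogene Ear-ps9, which took 0 to 3 counts per library. The other members were at least 90.2% unique at 50 bases. The 3 copies summed as 1 gene had a log2 change of -1.42. Ear6, the remaining family member that was tested, rose by 1.85 (SE 0.20, edgeR adjusted p = 2.5e-07).

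Patrolling monocytes, in which Ear2 is also known, showed no common direction. Of 9 genes of that list 3 fell and 4 rose, and the summed level was 775 to 980.1 CPM in saline and 609 to 783 CPM in bleomycin libraries. Itgal, an integrin, made up most of it and fell by 0.66 on the log2 scale, Cd300e fell by 2.72, and Ace, an enzyme of angiotensin processing, rose by 0.94.

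**Figure D2:**
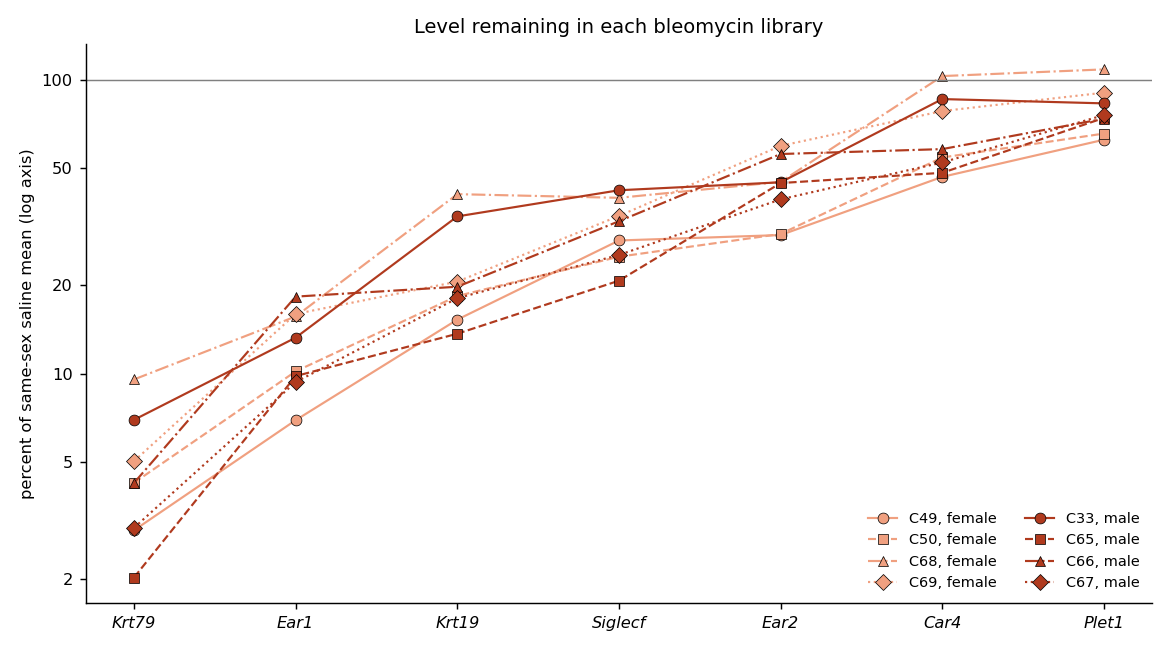
Level of each of the 7 tested genes in the 8 bleomycin libraries, as a percent of the mean of the saline libraries of the same sex (log axis, one line per library). The lines keep the order of the genes apart from Krt19 above Siglecf in C68 and Car4 above Plet1 in C33, and run from 2.03% to 9.56% for Krt79 to 62.5% to 108% for Plet1.

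The genes did not fall by a common factor. As a percent of the saline mean of the same sex, bleomycin females held 5.44 ± 2.88% of Krt79, 12.2 ± 4.39% of Ear1, 23.7 ± 11.6% of Krt19, 31.9 ± 6.49% of Siglecf, 41.0 ± 14.3% of Ear2, 70.5 ± 25.4% of Car4 and 81.7 ± 21.7% of Plet1 (SD, n = 4). Males held 4.06 ± 2.14%, 12.7 ± 4.12%, 21.4 ± 8.93%, 30.3 ± 9.35%, 46.1 ± 7.02%, 61.1 ± 17.0% and 76.7 ± 4.37% in the same order. Of the 21 ratios of FPKM between pairs, 16 did not overlap between saline and bleomycin libraries and 5 did. The 21 ratios reuse the same 7 genes. How often ratios of other gene pairs separate in these libraries was not tested, so the count describes these pairs only. The FPKM ratio of Plet1 to Krt79 moved most, from 2.86 to 4.17 in saline to 38.5 to 138 in bleomycin libraries. The 5 ratios that overlapped were Siglecf to Ear2, Siglecf to Krt19, Car4 to Ear2, Car4 to Plet1 and Ear1 to Krt19.

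The order of levels changed accordingly. In bleomycin libraries the mean FPKM was 981 for Ear2 (29th of protein-coding genes), 365 for Plet1 (98th), 136 for Car4 (314th), 68.3 for Krt19 (636th), 67.8 for Ear1 (642nd), 62.2 for Siglecf (730th) and 6.20 for Krt79 (5974th). Neighbours from Car4 to Siglecf in this order overlapped. By mean FPKM, Ear1 thus passed from above Plet1 to below Car4.

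**Figure D3:**
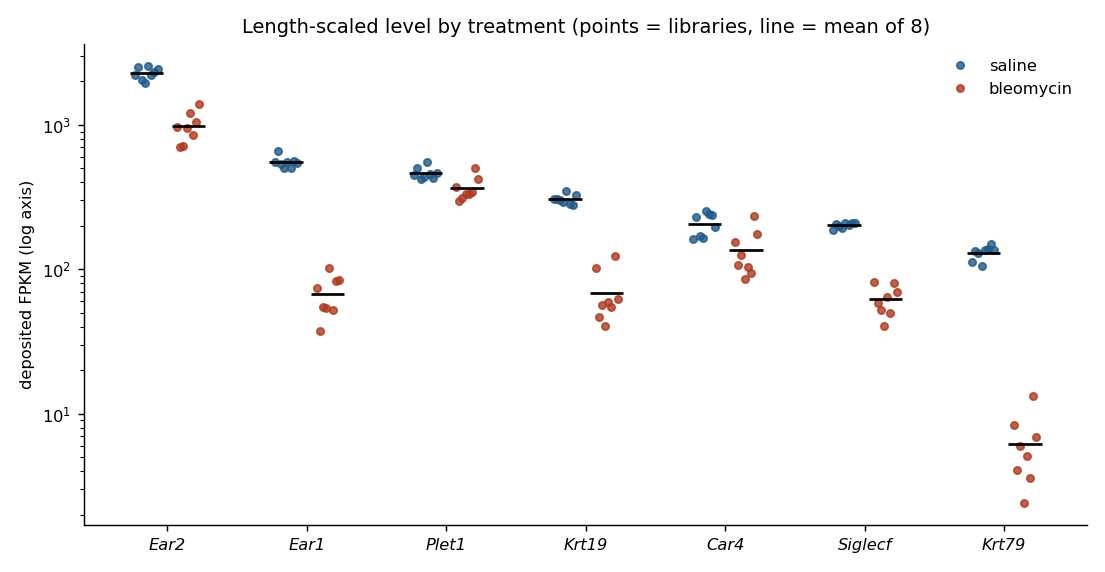
Deposited FPKM (log axis) of the 7 abundant genes in the 8 saline and 8 bleomycin libraries, with the mean as a line. Ear1 drops from a mean of 551 to 67.8 and Krt79 from 130.4 to 6.20, while Plet1 moves from 465 to 365.

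Libraries of one group differed in most of the genes together. Among bleomycin females, C68 was highest for 5 of the 7 genes and C49 lowest for 6. Among bleomycin males, C33 was highest for 5 and C65 lowest for 4. Lymphocyte markers ran opposite in these bleomycin libraries. The summed T cell genes were 213 CPM in C68, 233 in C69, 469 in C50 and 523 in C49 among females, and 247 in C33, 437 in C66, 511 in C67 and 608 in C65 among males. The summed B cell genes were 53.3 CPM in C68 and 269 in C49, and 92.4 in C33 and 349.6 in C65. The part of these cells in the values of the 7 genes was not tested. In saline, C71 was the highest male for all 7 genes, and also for the summed T cell genes (9.38 CPM) and B cell genes (1.14 CPM).

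**Figure D4:**
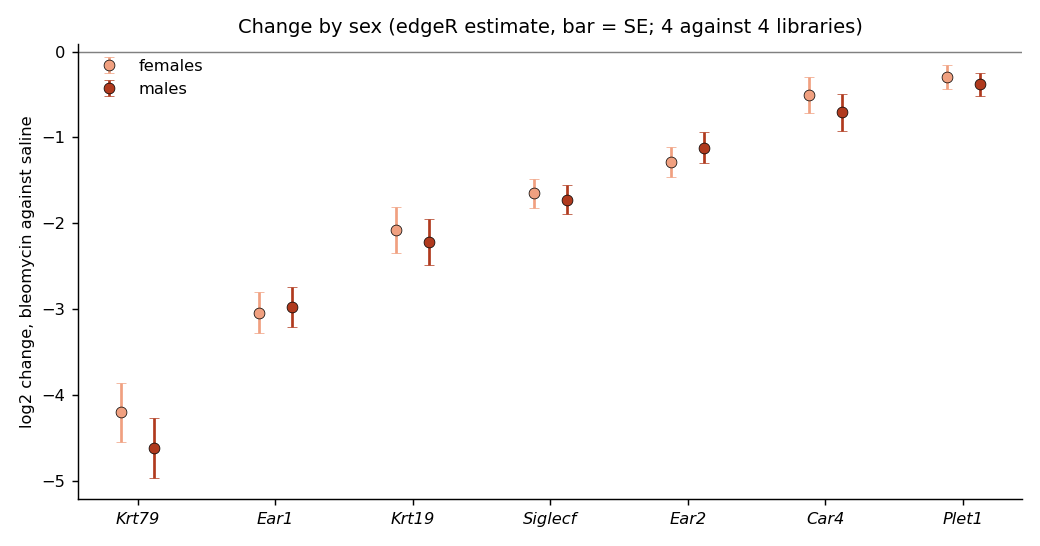
Log2 change between bleomycin and saline in each sex for the 7 tested genes (edgeR estimate with its SE, 4 against 4 libraries). The SE bars of the sexes overlap for every gene, from -4.20 and -4.62 for Krt79 to -0.29 and -0.38 for Plet1.

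The series asks whether the sexes respond differently. None of the 7 genes showed a sex difference that passed the test in edgeR's fit of all 4 groups. Under saline 0 of 7 were called by edgeR at adjusted p below 0.05 (0.269% of all genes), under bleomycin 0 of 7 (0.059%), and for the interaction of bleomycin with sex 0 of 7 (0.00655%). At an unadjusted p below 0.05 the counts were 0, 1 and 0, the 1 being Car4 under bleomycin. Over all 15257 genes tested, the counts at that threshold were 1458, 605 and 1202. DESeq2 and limma voom also called 0 of 7 in each of these comparisons. Between bleomycin males and bleomycin females the log2 difference of Car4 was -0.57 (SE 0.21, edgeR adjusted p = 0.995), and that of Krt79 was -0.64 (SE 0.31, edgeR adjusted p = 0.995).

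These results leave room for differences of some size. For the interaction, the interval of 2 SE around the estimate was -1.28 to 0.45 for Krt79, -0.56 to 0.68 for Ear1, -0.88 to 0.59 for Krt19, -0.54 to 0.40 for Siglecf, -0.33 to 0.67 for Ear2, -0.81 to 0.39 for Car4 and -0.48 to 0.30 for Plet1 (log2). Under saline, Krt79 was lower in all 4 males than in all 4 females, which held for 1 of the 7 genes (6.3% of all genes), with a log2 difference of -0.22 (SE 0.30, edgeR adjusted p = 0.82). The authors' deposited table for saline males against saline females lists Krt79 at a log2 fold change of -0.24 (adjusted p = 0.0263) and Car4 at -0.38 (adjusted p = 0.00795). The adjusted p of Car4 was 0.589 in edgeR's fit of all 4 groups and 0.0542 in its fit of only the groups compared, and the cause of the difference was not tested. The fall in females of Car4 is listed in the authors' deposited table at an adjusted p of 0.0399, on the other side of the threshold from edgeR's 0.0634.

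Other genes of the resident macrophage programme mostly moved with the 7, with exceptions. Of 20 further identity genes, all tested, 12 fell (28.8% of all genes were called lower), 4 rose and 4 did not pass, with a median log2 change of -0.31. Their summed level overlapped between treatments, at 26652 to 34307 CPM in saline and 20677 to 35843 CPM in bleomycin libraries. The 12 were Pparg, Itgax, Fabp1, Cidec, Mrc1, Ly75, Il18, Perp, Olr1, Cd2, Slc7a2 and Abcg1. Mrc1, the mannose receptor, fell by 0.71 (SE 0.08, edgeR adjusted p = 5.76e-07), and Abcg1, a cholesterol exporter, fell by 0.82 (SE 0.08, edgeR adjusted p = 1.12e-07). Chil3, a chitinase-like secreted protein and the most abundant of them, had a log2 change of -0.26 that did not pass (adjusted p = 0.151). Fabp5, a fatty acid-binding protein, rose by 2.05 and Ctsk, a cysteine protease, by 1.49, and Fabp4 and Lpl, of lipid handling, rose by 0.57 and 0.21.

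The regulators did not move one way. Of 21 genes, 20 were tested, 7 fell (Stat5a, Stat5b, Pparg, Rxra, Cebpb, Tgfbr1 and Egr2), 7 rose and 6 did not pass. Over all 15257 genes tested 4400 were called lower and 5300 higher, so such a split is common in this comparison. The receptor chains of GM-CSF, Csf2ra and Csf2rb, had averaged log2 changes of -0.08 and -0.15 that did not pass (edgeR adjusted p = 0.169 and 0.103). In males both were called lower (-0.24 and -0.30, edgeR adjusted p = 0.0104 and 0.0254). In females the changes were 0.07 and 0.01 (adjusted p = 0.455 and 0.965). The interaction of bleomycin with sex was called for 0 of the 20 regulators tested. Cebpb, a transcription factor of the C/EBP family, fell by 0.46. Bhlhe40 and Bhlhe41 rose by 0.29 and 0.50. Maf, a transcription factor, rose by 4.64.

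**Figure D5:**
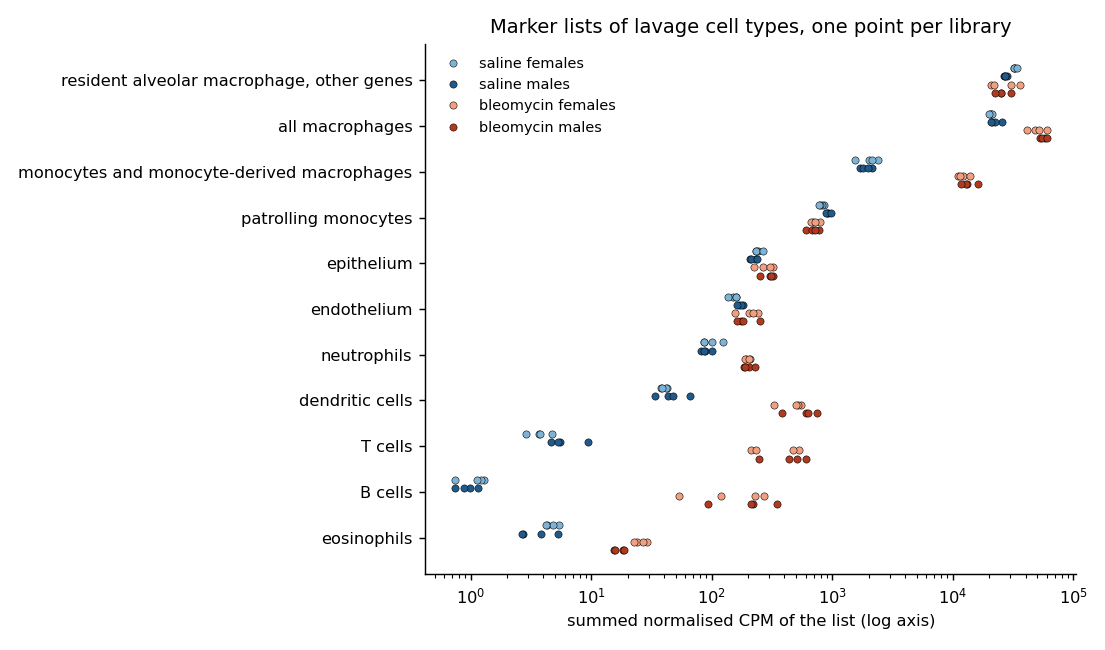
Summed normalised CPM (log axis) of marker lists for lavage cell types, one point per library in the 4 groups. T cell, B cell and dendritic cell markers are higher in every bleomycin than in every saline library, as are the monocyte and general macrophage lists.

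Markers of cells that enter the injured lung rose while the 7 genes fell. All 12 genes of monocytes and monocyte-derived macrophages rose, and their summed level was 1550 to 2404 CPM in saline and 10954 to 16205 CPM in bleomycin libraries. Most of the saline sum was Fn1, with means of 1896 and 1737 CPM in saline females and males. Fn1 rose by 1.47 on the log2 scale, beside a median of 6.48 for the 12 genes. C1qa and C1qb had saline group means of at most 3.44 and 2.96 CPM. Apoe, a lipid carrier, rose by 6.12 and C1qb, a complement subunit, by 8.09 on the log2 scale. Of 6 genes shared by all macrophages 4 rose and Mertk fell, with summed levels of 19986 to 25360.3 CPM in saline and 41031 to 60009.9 CPM in bleomycin libraries. Mertk was called lower in males (log2 change -0.43, edgeR adjusted p = 0.00166) and not in females (-0.04, adjusted p = 0.773). For the interaction of bleomycin with sex, 0 of these 6 genes were called. T cell genes rose in 10 of 10, B cell genes in 6 of 6, dendritic cell genes in 10 of 11 and neutrophil genes in 5 of 6 tested. The summed T and B cell genes did not exceed 9.38 and 1.28 CPM in any saline library, so a fall could hardly have been called among them. How far RNA from these cells lowered the share of counts left for the 7 genes was not tested.

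Some genes had profiles close to those of the members. Likeness was measured as the root mean square difference of log2 CPM, each gene centred on its own mean, over the 16 libraries, among protein-coding genes of at least 10 CPM on average. The closest to Krt79 was Acaa1b (0.41), to Ear1 Cidec (0.32), to Krt19 Tppp3 (0.20), to Siglecf Agmo (0.15), to Ear2 Klra2 (0.14), to Car4 Vdr (0.22) and to Plet1 Vim (0.10). Among the members themselves the closest pair was Car4 and Plet1 (0.29) and the farthest Plet1 and Krt79 (2.14). These distances describe 16 libraries that share 1 treatment contrast.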

How the data were processed

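RNA of bronchoalveolar lavage cells was sequenced in 16 mouse libraries. Trimming with fastp 0.12.2, alignment with HISAT2 2.0.5, counting with featureCounts 1.5.0-p3 and comparison with DESeq2 are tools named in the submitters' processing notes, as are the builds mm9 and mm10, with no role given. The deposited gene positions match GRCm38. The deposited counts are raw counts per gene. The deposited FPKM equal counts per gene length divided by a constant per library that is proportional to DESeq2 size factors, as tested on the files (tolerance 0.0001), so they are scaled for composition. The log2 fold changes and p-values in the authors' deposited tables are their own, and those tables list only genes with a p-value up to 0.05.

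Each of the 16 columns was matched to its sample by the code in its title, with 0 left over. Genes were kept by edgeR's filterByExpr (minimum count 10), and 15257 of 54532 were fitted in 1 quasi-likelihood model with a coefficient per group (edgeR 4.0.16, R 4.3.3), TMM factors and Benjamini-Hochberg adjustment. The fit was tested on simulated data. DESeq2 1.42.0, limma voom (limma 3.58.1), other scalings and filters, fits of only the groups compared, a sum of the Ear copies and fits without each library were alternatives. Upstream stretches were aligned with Biopython 1.88.

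The members and the 12 marker lists (137 genes) were chosen with earlier results of these data known. Named were all members, the 4 most abundant tested genes of each list and those against its direction, the 4 family members highest in FPKM, and the closest profiles. Of the regulators, 1 gene is not reported here by name.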

Additional observations from a re-analysis of the deposited data

Results flagged for a closer look

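In 28 sets of 4 libraries (7 genes in 4 groups), a library was marked when its gap to the nearest other was above the 95% critical value of Dixon for the range of its group, which chance gives in about 1 in 20 sets. For Siglecf the saline female C75 stood apart at 572 CPM, below the 583 to 585 CPM of the other 3 females. For Car4 the saline male C71 stood apart at 452 CPM, above the 317 to 335 CPM of the other 3 males.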

How the results depend on the processing

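No paired analysis was possible because the groups share no replicate codes. The averaged falls of the 7 genes kept direction and call in all 156 alternative values. In males 159 did and 4 values of Plet1 lost the call, and in females 152 did and 11 values of Car4 or Plet1 gained it.

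Counts over all genes moved more. Between the sexes under saline, 41 genes were called, 119 with no filter on low counts, 184 in DESeq2, 764 in a fit of only the groups compared and 20 to 76 with a library left out. Under bleomycin 9 became 14 with no filter. For the interaction 1 became 15 with no filter, 23 in DESeq2, 0 with library totals alone, with the strict filter and in limma voom, and 0 to 1 with a library left out. The cause was not tested.

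No member was called in these comparisons, and some estimates changed sign. With the Ear copies summed, the saline sex difference of Ear1 went from 0.05 to -0.10. With a library left out, log2 differences between saline males and females ran from -0.031 to 0.10 for Ear1, -0.12 to 0.012 for Plet1 and -0.084 to 0.026 for Krt19. Between bleomycin males and females they ran from -0.11 to 0.27 for Ear1, -0.092 to 0.27 for Ear2, -0.27 to 0.0054 for Plet1 and -0.51 to 0.21 for Krt19. For the interaction they ran from -0.27 to 0.095 for Siglecf, -0.42 to 0.034 for Car4, -0.14 to 0.24 for Ear1, -0.20 to 0.075 for Plet1, -0.81 to 0.0015 for Krt79 and -0.47 to 0.25 for Krt19. Depth limits Ear10 most, with 0 to 12 counts per library.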
